A study of Homo sapiens with 3 samples.

Results

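The proteasome subunits described here are the genes whose symbols begin with PSMA, PSMB, PSMC, PSMD or PSME followed by a number. They were found through the RefSeq transcript assigned to each probe on an Agilent 2-color expression array, with pseudogenes left out and the brightest probe taken for each gene. A probe was matched for 42 of the 43 such protein-coding genes in RefSeq, out of 25006 genes named on the array, and PSMC6 was not matched to a probe. Of the 42 genes, 40 were detected, meaning well above background in both clones on all 3 arrays. The 2 others were PSMA8, the form of an alpha subunit known from testis, and PSMB11, the beta subunit known from thymus, and neither was well above background in either clone on any array.

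The study compared stably transfected clones of U87, an established human glioma cell line, to ask what the nuclear location of the insulin-like growth factor 1 receptor (IGF1R) does to gene expression. The clone U87WT 5 carries GFP-IGF1R, a receptor fused to green fluorescent protein that can enter the nucleus. The clone U87Mut 5 carries GFP-IGF1R1025x-1100x-1120x, in which the lysines at positions 1025, 1100 and 1120 were replaced so that the receptor does not reach the nucleus. Each array carried RNA of U87WT 5 in Cy5 and of U87Mut 5 in Cy3, and the clones are called U87WT and U87Mut below. Both clones were kept for 24 h in FBS-free medium, in IGF1 at 50 nM, or in IGF1 at 50 nM with OSI906, an inhibitor of the IGF1R and insulin receptor kinases. The dose of OSI906 was 0.5 µM by the sample title and the methods, while another label gives 500 µM. There was 1 array per condition, 1 clone per receptor and no dye swap, so a difference between the clones and a difference between the dyes cannot be told apart.

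The 26S proteasome is the protease complex that degrades ubiquitin-tagged proteins. Its 20S core is a barrel of alpha rings, which gate the entrance, around beta rings, which hold the caspase-like, trypsin-like and chymotrypsin-like cutting sites, and its 19S cap binds ubiquitin chains, removes them and uses ATPases to unfold and feed in the substrate. Interferon-gamma induces counterparts of the 3 constitutive catalytic subunits, which replace them to form the immunoproteasome, and the PA28 and PA200 activators can take the place of the cap.

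Brightness differs between probes for reasons other than RNA amount, so values are compared between clones or conditions for one probe and not between genes. A value is either a level, the normalized log2 brightness of one clone, or a clone ratio, the log2 level in U87WT minus that in U87Mut, so that a negative ratio is lower in U87WT. The subunits were far above the noise: their detected levels lay at or above a mean log2 brightness of 8.43, and no spot of a subunit was saturated or marked as uneven. Of the glioma and mesenchymal markers, 6 of 9 were detected, among them VIM, CD44 and S100A6, while GFAP, SOX2 and S100B were not well above background on all arrays. Of the 9 immune, endothelial and epithelial markers with a probe, 4 were detected, at mean log2 brightness from 6.09 for VWF to 6.84 for EPCAM, where the added offset alone gives 5.64. Some markers moved with the clone: in limma S100A6 was higher in U87WT with clone ratios of 0.57, 0.46 and 0.79 (adjusted p = 0.0132), and EPCAM was higher with 0.36, 0.53 and 0.20 (adjusted p = 0.0463). VIM had 1.15, 0.29 and 0.77 and did not pass (limma adjusted p = 0.068). The part of these genes in the results was not tested. IGF1R itself had clone ratios of 0.07, 0.23 and 0.09 in FBS-free medium, IGF1 and IGF1 with OSI906, but both clones carry the receptor and whether the probe reads the transgene is not known, so this checks no label.

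Most subunits were at lower levels in U87WT than in U87Mut, by small amounts. RNA of whole cultures was measured, so fewer cells that express a gene and less of its RNA per cell cannot be told apart. The median clone ratio of the 40 detected subunits was -0.25 in FBS-free medium, -0.14 in IGF1 and -0.22 in IGF1 with OSI906, where all 15105 detected genes had medians of -0.01, 0.02 and -0.01. The ratio was below 0 for 30, 28 and 28 of the 40 subunits on these arrays, which is 75%, 70% and 70%, against 52.3%, 45.8% and 52.3% of all detected genes. On all 3 arrays together, 23 subunits (57.5%) were below 0, against 28.7% of all detected genes and 32.6% of the 7307 detected genes at least as bright as the dimmest subunit. The ratio was above 0 on all arrays for 6 subunits and had both signs for 11. A share of all detected genes past 0.5 on any array is not given here, only the share on each array. Of the 40 subunits, 6 passed 0.5 in either direction on any array. In FBS-free medium 0 were above 0.5 and 2 below -0.5, against 6.28% and 6.16% of all detected genes. In IGF1 the counts were 2 and 1, against 7.25% and 4.66%, and in IGF1 with OSI906 they were 1 and 3, against 5.71% and 5.67%. At the limit that the study's methods use, 0.5 SD of each array or a log2 ratio of 0.113, 0.113 and 0.108, there were 27, 22 and 24 subunits below it, against 33.1%, 28.3% and 34.9% of all detected genes, and 5, 8 and 8 above it, against 29.4%, 36% and 30.7%.

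**Figure D1:**
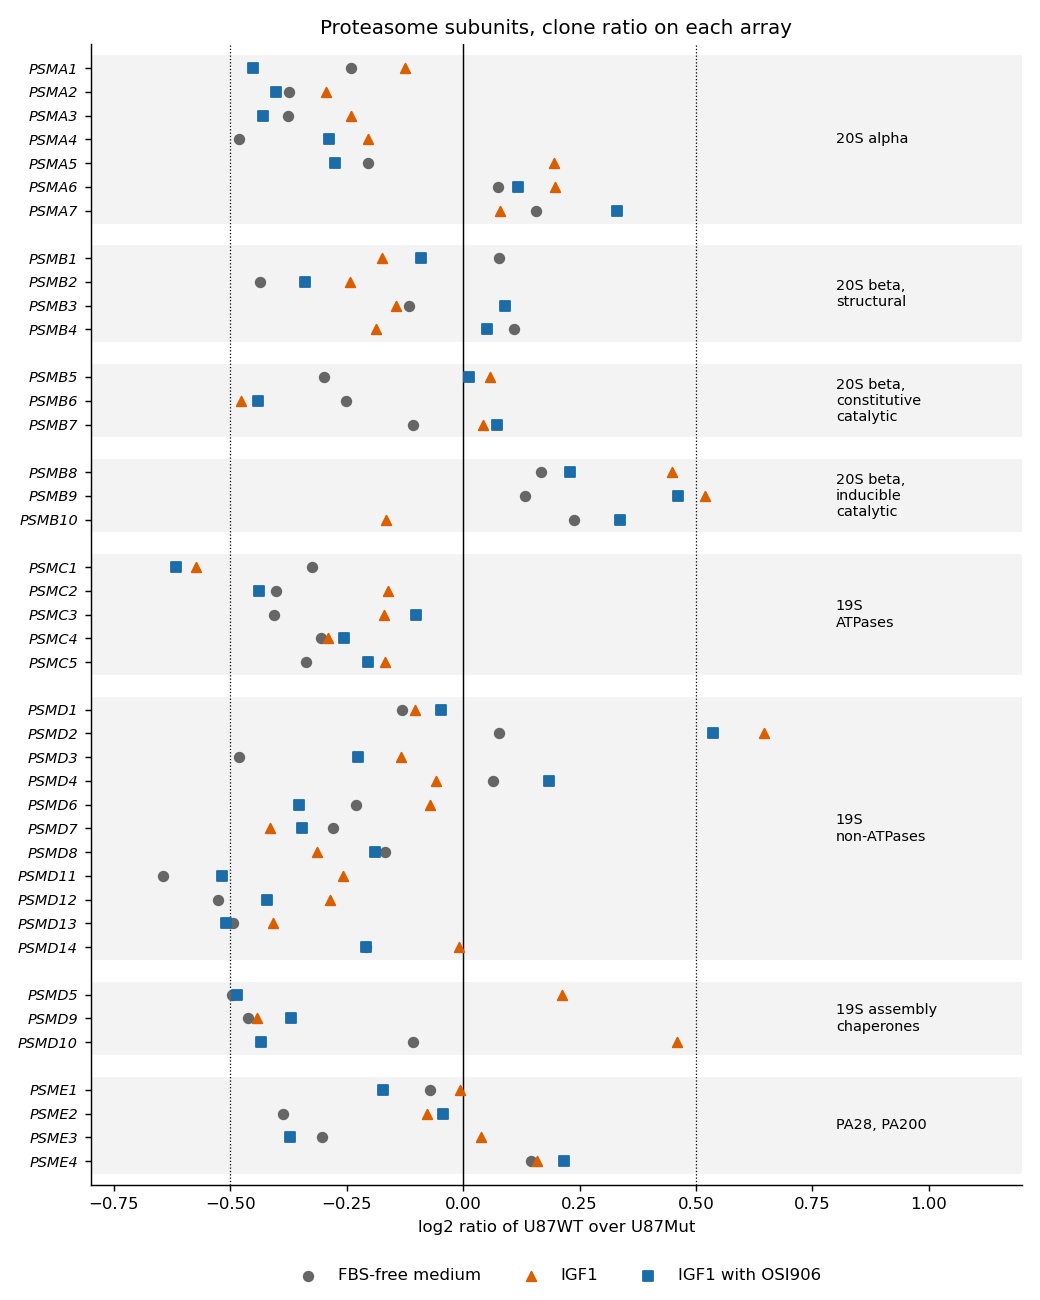
Clone ratio (log2 of U87WT over U87Mut, horizontal axis) of the 40 detected proteasome subunits, grouped by subcomplex, with 1 point for each array and dotted lines at a size of 0.5. Points lie mostly left of 0, for all 5 of the 19S ATPases on every array. PSMA6, PSMA7, PSMB8, PSMB9, PSMD2 and PSME4 lie to the right on every array, though the dimmer probes of PSMD2 and PSME4, not shown, did not.

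**Figure D2:**
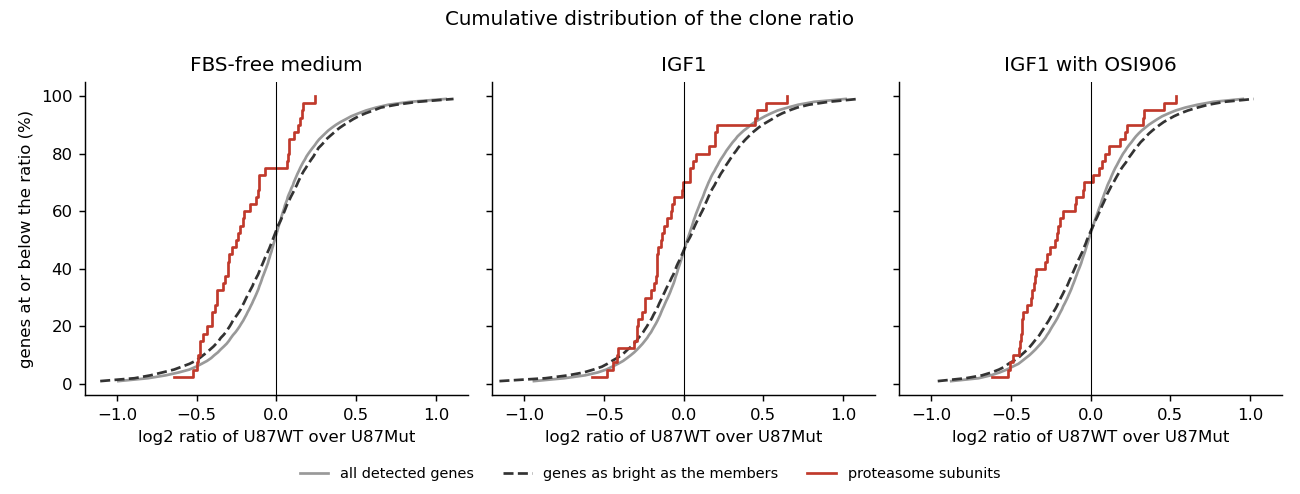
Share of genes (%) at or below each clone ratio on the 3 arrays, for the 40 detected subunits (red), all 15105 detected genes (gray) and the 7307 detected genes at least as bright as the dimmest subunit (dashed). The red curve lies left of the others through the middle of each panel, with medians of -0.25, -0.14 and -0.22.

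The mean ratio over the 3 arrays was tested against 0 with limma across all 58201 probes, the spread between the 3 different conditions serving as the error. At an adjusted p under 0.05, 14 of the 40 subunits (35%) were lower in U87WT, against 11.2% of all detected genes and 14.7% of those at least as bright as the dimmest subunit. The number of subunits that were higher was 0, against 11.5% of all detected genes and 14.8% of the bright ones. At an unadjusted p under 0.05, 20 subunits were lower and 6 were higher in limma. The share of all detected genes under that unadjusted p is not given here, so these counts have no background beside them. The count of lower subunits rested on the choice of arrays and processing: it was 4 without the FBS-free array, 20 without the IGF1 array and 0 without the OSI906 array, while the share of all detected genes called lower moved to 3.84%, 14.5% and 1.61%. It was also 0 with no offset in the background correction, 6 with that correction fitted on all spots and 3 in the deposited ratios. The share of all detected genes called lower was then 1.33%, 2.69% and 3.1%. In these last 2 settings the subunits' median in IGF1 was -0.16 and -0.15, above the -0.21 and -0.25 of the genes at least as bright as the dimmest subunit.

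**Figure D3:**
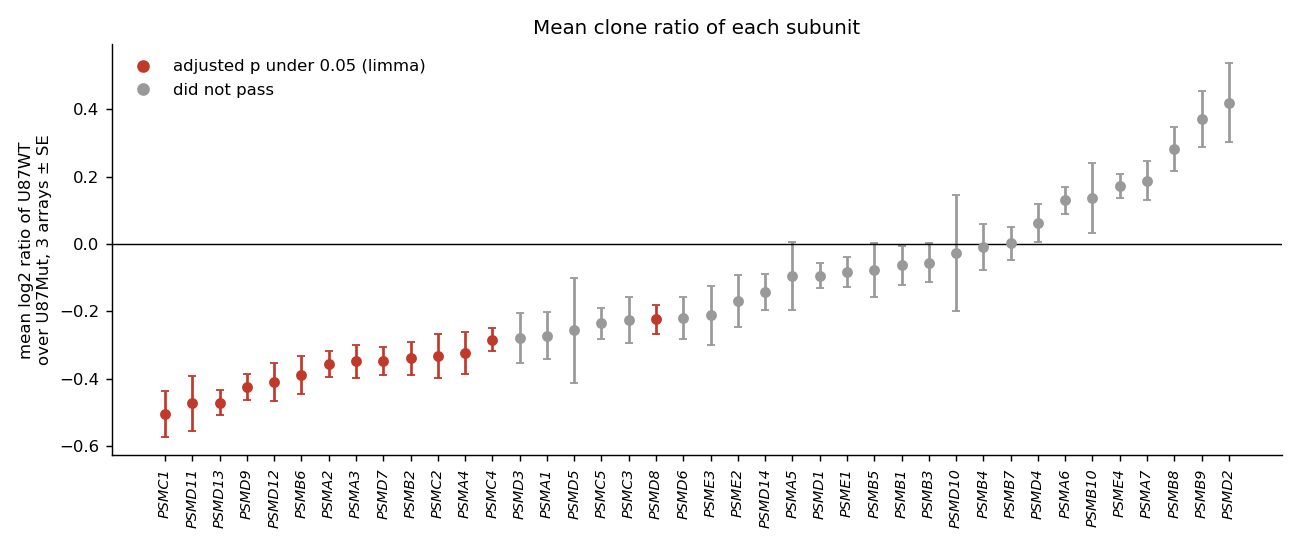
Mean clone ratio of each detected subunit over 3 arrays, with its limma standard error as bars, in order from the lowest to the highest. The 14 subunits that passed an adjusted p of 0.05 (red) all lie below 0, from PSMC1 at -0.50 to PSMD8 at -0.22.

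The 19S ATPases, the ring of motor proteins that unfolds substrates and opens the gate of the core, were the group in which every detected member had a ratio below 0 on every array. The medians of the 5 detected ATPases were -0.34, -0.17 and -0.26 in FBS-free medium, IGF1 and IGF1 with OSI906. By the limma test 3 of the 5 were lower, against 11.2% of all detected genes. PSMC1, the Rpt2 ATPase whose tail helps to open the core gate (NM_002802), had the lowest mean ratio of all the subunits. Its log2 level in U87WT was 12.90, 12.85 and 12.76 on the 3 arrays, and in U87Mut it was 13.23, 13.42 and 13.38. The ratios of -0.32, -0.57 and -0.62 gave a mean of -0.50 ± 0.07 (SE, 3 arrays), which is 1.42-fold lower in U87WT (limma adjusted p = 0.0187). A 2nd probe of PSMC1 gave -0.46, -0.50 and -0.67.

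PSMC4, the Rpt3 ATPase, had the smallest spread of the 5, with ratios of -0.30, -0.29 and -0.26 (mean -0.28 ± 0.03, limma adjusted p = 0.0145). PSMC2, the Rpt1 ATPase, was lower with ratios of -0.40, -0.16 and -0.44 (limma adjusted p = 0.0488), but its 2nd probe gave -0.43, 0.19 and 0.08. PSMC3 and PSMC5, the Rpt5 and Rpt6 ATPases, did not pass. PSMC3 had the highest mean ratio of the 5, with -0.41, -0.17 and -0.10 (limma adjusted p = 0.145). PSMC5 lay just outside the threshold, with -0.34, -0.17 and -0.20 (limma adjusted p = 0.0514).

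The non-ATPase subunits build the scaffold of the 19S cap and its ubiquitin receptors. Of the 11 with a PSMD symbol, 5 were lower by the limma test, against 11.2% of all detected genes. The 5 were PSMD7, PSMD8, PSMD11, PSMD12 and PSMD13, scaffold subunits of the part of the cap known as the lid. With the ATPases, 8 of the 16 detected 19S subunits were lower. PSMD11, the Rpn6 subunit that clamps the lid to the core (NM_002815), had log2 levels of 9.42, 9.93 and 9.50 in U87WT and of 10.07, 10.19 and 10.02 in U87Mut. The gap between the clones was narrowest in IGF1, and the ratios were -0.65, -0.26 and -0.52 (mean -0.47 ± 0.08, limma adjusted p = 0.0343). PSMD13, the Rpn9 subunit (NM_175932), differed by nearly the same amount on each array. Its levels were 10.61, 10.78 and 10.76 in U87WT and 11.10, 11.19 and 11.26 in U87Mut, and the ratios of -0.49, -0.41 and -0.51 gave a mean of -0.47 ± 0.04, or 1.39-fold lower (limma adjusted p = 0.0065).

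PSMD12, the Rpn5 subunit of the lid, had ratios of -0.53, -0.28 and -0.42 (mean -0.41 ± 0.06, limma adjusted p = 0.0194). PSMD7, the Rpn8 partner of the lid's deubiquitinase, had -0.28, -0.41 and -0.35 (limma adjusted p = 0.0142). PSMD8, the Rpn12 subunit, had -0.17, -0.31 and -0.19, and passed with an adjusted p that rounds to 0.05. The deubiquitinase itself, PSMD14, which cuts ubiquitin chains off the substrate, had ratios of -0.21, -0.01 and -0.21 and did not pass (limma adjusted p = 0.232). PSMD4, the ubiquitin receptor Rpn10, had ratios of 0.06, -0.06 and 0.18. PSMD1, PSMD3 and PSMD6, the remaining members with negative means, had ratios between -0.48 and -0.05 and did not pass.

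PSMD2, the Rpn1 scaffold to which ubiquitin-like domains dock (NM_002808), had the highest mean ratio of all the subunits and did not pass the test. Its levels in U87WT were 14.76, 14.71 and 14.82, within a narrow range, while those in U87Mut were 14.68, 14.07 and 14.29. The ratios were therefore 0.08 in FBS-free medium but 0.65 and 0.54 in IGF1 and IGF1 with OSI906 (mean 0.42 ± 0.12, limma adjusted p = 0.122). A 2nd, dimmer probe of PSMD2 gave the opposite direction on every array, with ratios of -0.23, -0.27 and -0.16 (limma adjusted p = 0.0359). Of the 12 subunits with 2 detected probes, PSMD1, PSMD2, PSMD5 and PSME4 had mean ratios of opposite sign on their 2 probes, and PSMA1, PSMC1, PSMD9 and PSMD10 had the same sign on all 3 arrays.

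Of the chaperones that help to assemble the 19S base and carry a PSMD symbol, PSMD9 was lower in U87WT and the other two varied between the arrays. PSMD9, also called p27 (NM_002813), had levels of 13.00, 13.01 and 13.04 in U87WT and of 13.46, 13.45 and 13.41 in U87Mut. The levels of each clone hardly moved between conditions, and the ratios of -0.46, -0.44 and -0.37 gave a mean of -0.42 ± 0.04 (limma adjusted p = 0.00739). A 2nd, dimmer probe of PSMD9 gave smaller ratios of -0.14, -0.10 and -0.27 and did not pass (limma adjusted p = 0.113). PSMD5, also called S5b, and PSMD10, also called gankyrin, had the widest spread of all the subunits between arrays, at 0.71 and 0.89. PSMD5 had ratios of -0.50, 0.21 and -0.49 and PSMD10 of -0.11, 0.46 and -0.43. In both, the IGF1 array stood above the other two. The 2nd probe of PSMD10 followed the same order, with -0.06, 0.30 and -0.41, whereas that of PSMD5 gave 0.51, -0.44 and 0.07.

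Among the 7 detected alpha subunits, which form the gated outer rings of the core, 3 were lower in U87WT, against 11.2% of all detected genes. PSMA2 had the lowest mean, with log2 levels of 11.97, 12.04 and 12.17 in U87WT and of 12.34, 12.34 and 12.57 in U87Mut. Its ratios were -0.37, -0.29 and -0.40 (mean -0.36 ± 0.04, limma adjusted p = 0.0115). PSMA3 had -0.38, -0.24 and -0.43 (limma adjusted p = 0.0211), and PSMA4 had -0.48, -0.20 and -0.29 (limma adjusted p = 0.0465). PSMA6 and PSMA7 stood above 0 on all 3 arrays without passing. PSMA7 had the highest mean of the ring, with ratios of 0.16, 0.08 and 0.33 (mean 0.19 ± 0.06, limma adjusted p = 0.153). PSMA1 was below 0 on all arrays with a limma adjusted p of 0.0992, and PSMA5 had both signs, with -0.21, 0.19 and -0.28.

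Of the 4 beta subunits without a cutting site, 1 was lower in U87WT, against 11.2% of all detected genes. This was PSMB2, with ratios of -0.44, -0.24 and -0.34 (mean -0.34 ± 0.05, limma adjusted p = 0.022), although its 2nd probe gave -0.53, 0.11 and -0.22. PSMB1, PSMB3 and PSMB4 each had both signs. PSMB4 had the highest mean, with 0.11, -0.19 and 0.05. The brightest probe of PSMB1 gave 0.08, -0.17 and -0.09, while its dimmer probe gave -0.28, -0.30 and -0.33 (limma adjusted p = 0.0126).

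The catalytic subunits allow the constitutive and the inducible form of each cutting site to be set side by side. At the beta1 site, PSMB6 of the constitutive core (NM_002798) was lower in U87WT, with levels of 13.04, 12.97 and 12.91 against 13.29, 13.45 and 13.35 in U87Mut. Its ratios of -0.25, -0.48 and -0.44 gave a mean of -0.39 ± 0.06, or 1.31-fold lower (limma adjusted p = 0.0222). Its inducible counterpart PSMB9 (NM_002800) had levels of 10.64, 10.91 and 10.83 in U87WT and of 10.50, 10.39 and 10.37 in U87Mut. PSMB9 thus lay higher in U87WT on every array, with ratios of 0.13, 0.52 and 0.46, but did not pass (mean 0.37 ± 0.08, limma adjusted p = 0.0729).

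At the beta5 site, PSMB5, the chymotrypsin-like subunit that bortezomib binds, had ratios of -0.30, 0.06 and 0.01 (limma adjusted p = 0.677). Its inducible counterpart PSMB8 (NM_004159) had levels of 8.99, 9.0 and 8.93 in U87WT and of 8.82, 8.56 and 8.70 in U87Mut. The ratios of 0.17, 0.45 and 0.23 gave a mean of 0.28 ± 0.06, which did not pass (limma adjusted p = 0.0739). PSMB8 and PSMB9 both passed as higher when the offset of the background correction was 20 in place of 50, at limma adjusted p of 0.0461 and 0.0272. With the correction fitted on all spots their means were 0.13 and 0.25 (limma adjusted p = 0.415 and 0.322), and in the deposited ratios again 0.13 and 0.25 (limma adjusted p = 0.518 and 0.309).

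At the beta2 site the order changed with the condition. The constitutive PSMB7 had ratios of -0.11, 0.04 and 0.07 (limma adjusted p = 0.988). The inducible PSMB10 (NM_002801) had levels of 13.10, 12.63 and 13.28 in U87WT and of 12.86, 12.79 and 12.94 in U87Mut. Its U87WT value was the lowest of all 6 in IGF1 and the highest in IGF1 with OSI906, so that the ratios were 0.24, -0.17 and 0.34 and the clones overlapped (limma adjusted p = 0.556).

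**Figure D4:**
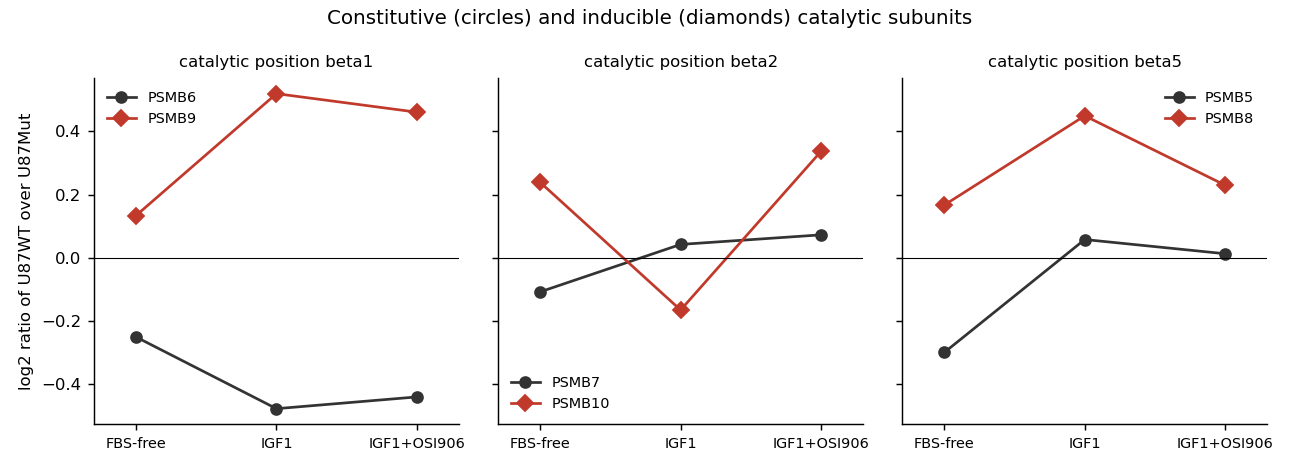
Clone ratio (log2 of U87WT over U87Mut) of the constitutive (circles) and inducible (diamonds) catalytic subunit at each cutting site on the 3 arrays, with 1 value per point and lines to guide the eye. PSMB9 and PSMB8 lie above PSMB6 and PSMB5 on every array, while PSMB10 lies below PSMB7 in IGF1.

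Of the 4 activators, 0 passed the limma test in either direction at adjusted p, and PSME4 alone was under an unadjusted p of 0.05. PSME1 and PSME2, the interferon-induced alpha and beta chains of PA28, had ratios of -0.07, -0.01 and -0.17 and of -0.39, -0.08 and -0.04. PSME3, the nuclear PA28 gamma, had the lowest mean of the 4, with -0.30, 0.04 and -0.37. PSME4, or PA200, had the highest, with 0.15, 0.16 and 0.22 (mean 0.17 ± 0.04, limma adjusted p = 0.0567), but its 2nd probe gave -0.23, 0.07 and -0.35. The inducible catalytic subunits and PA28 alpha and beta, which interferon-gamma raises together in many cells, thus did not share a direction here.

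The neighborhood of the inducible genes was read from the RefSeq gene order. TAP2, PSMB8, TAP1 and PSMB9 follow each other among the protein-coding genes of chromosome 6, and the TAP genes encode the transporter that carries proteasome-made peptides to the endoplasmic reticulum. TAP1 had ratios of 0.24, 0.62 and 0.25 (limma adjusted p = 0.082), above 0 on every array like PSMB8 and PSMB9 on its sides. TAP2, beside PSMB8 on the other side, had -0.29, -0.02 and -0.28. IRF1, a transcription factor of the interferon response, had -0.62, -0.65 and -0.12 and did not pass (limma adjusted p = 0.0949).

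Promoter sequence is shown for members whose values are described above, to place known elements next to them. RefSeq windows from 250 bases before to 50 after the transcription start (GRCh38.p14) were at hand for 37 of the 42 subunits. The first set shows the interferon-type elements of inducible genes, in capitals: GAAA, any 2 bases and GAAA again in PSMB10 and PSME2, and TTCNNNGAA in PSMB8. The windows are PSMB10 at chr16:67936851-67936910, PSME2 at chr14:24146611-24146670 and PSMB8 at chr6:32844079-32844138, all on the minus strand and written 5′ to 3′ along the gene.
PSMB10: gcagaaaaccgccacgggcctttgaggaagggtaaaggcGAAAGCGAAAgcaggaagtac
PSME2: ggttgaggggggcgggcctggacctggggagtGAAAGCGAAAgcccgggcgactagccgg
PSMB8: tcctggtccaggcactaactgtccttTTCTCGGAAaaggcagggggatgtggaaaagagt

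On either strand, this GAAA repeat, the core of an interferon-stimulated response element, was found in 6 of the 37 promoters (16.2%), against 4.38% of all genes. It was in 4 of the 5 of PSMB8, PSMB9, PSMB10, PSME1 and PSME2, with PSMB9 as the exception. The gamma-activated site TTCNNNGAA, which reads the same on both strands, was in 8 of 37 (21.6%), against 9.38% of all genes. PSMB10 and PSME2 share the letters GAAAGCGAAA, but their clone ratios had opposite signs in FBS-free medium and in IGF1 with OSI906.

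The second set shows the antioxidant response element core TGACNNNGC, the type of site through which the factor encoded by NFE2L1 raises proteasome genes together, in members that were lower in U87WT. The windows are PSMA4 at chr15:78540634-78540693 (plus strand), PSMD9 at chr12:121888662-121888721 (plus strand) and PSMD12 at chr17:67366709-67366768 (minus strand), again along the gene.
PSMA4: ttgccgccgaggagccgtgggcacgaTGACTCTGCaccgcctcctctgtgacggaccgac
PSMD9: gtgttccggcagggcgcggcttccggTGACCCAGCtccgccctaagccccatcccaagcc
PSMD12: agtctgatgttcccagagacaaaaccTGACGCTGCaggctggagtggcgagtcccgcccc

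This element was in 13 of the 37 promoters on either strand (35.1%), against 16.1% of all genes. It was in 4 of the 13 lower subunits with a promoter and in 9 of the 24 others, a difference that was not tested. NFE2L1 had ratios of -0.21, -0.01 and -0.14 and did not pass, and NFE2L2, which encodes a related factor, was not detected. A match of letters is not a bound site, and no binding was measured.

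The response of each clone was read from its own channel, where the dye is the same on every array but the array and the treatment cannot be told apart. In U87WT the subunits were slightly higher after IGF1 than in FBS-free medium. The median difference in log2 level was 0.14 over the 40 subunits and 0.01 over all detected genes, and 31 subunits (77.5%) were above 0, against 52% of all detected genes. In U87Mut the median was 0.00, with 20 subunits (50%) above 0, against 42% of all detected genes. With 1 array per condition these differences carry no error and no test. The SD of a single clone ratio, estimated from the FBS-free and OSI906 arrays over detected genes, was 0.151. It does not measure the error of a difference between arrays.

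After IGF1 in U87WT, 3 of the 40 subunits were higher by more than 0.5, against 297 of the 15105 detected genes (1.97%). They were PSMD5 (0.55), PSMD12 (0.53) and PSMD11 (0.50), and the same differences in U87Mut were -0.15, 0.29 and 0.12. The 2nd probe of PSMD5 gave the reverse, -0.50 in U87WT and 0.45 in U87Mut. The count of 3 was 1 with the background correction fitted on all spots, with the scanner's processed signals and with quantile scaling, and 22 with median centering. The level of PSMD12 in U87WT was 10.10 in FBS-free medium, 10.62 in IGF1 and 10.19 with OSI906, and in U87Mut it was 10.62, 10.91 and 10.61. Both clones were thus highest in IGF1. PSMB2 and PSME2 were also higher in both clones after IGF1, by 0.42 and 0.43 in U87WT and by 0.22 and 0.12 in U87Mut, but the 2nd probe of PSMB2 gave 0.57 in U87WT and -0.07 in U87Mut. In the other direction, no subunit of U87WT was lower by more than 0.5, against 2.6% of all detected genes, and PSMB10 came nearest at -0.47. The only subunit past that size in U87Mut was PSMD2, at -0.62, against 1.72% of all detected genes below -0.5 and 0.821% above 0.5. Its 2nd probe gave 0.04.

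When IGF1 with OSI906 was set against IGF1 alone, 3 subunits of U87WT were lower by more than 0.5, against 3.56% of all detected genes. These were PSMD10 (-0.76), PSMD5 (-0.68) and PSMA5 (-0.51), and the same differences in U87Mut were 0.13, 0.02 and -0.04. The level of PSMD5 in U87WT was 8.78 in FBS-free medium, 9.33 in IGF1 and 8.66 with OSI906, while U87Mut stayed at 9.27, 9.12 and 9.14. PSMD10 was at 9.17, 9.51 and 8.75 in U87WT and at 9.28, 9.06 and 9.18 in U87Mut. On these probes U87WT was highest in IGF1 and lowest with OSI906 for both genes. The 2nd probe of PSMD10 had the same order, at 7.43, 7.81 and 7.24 in U87WT, whereas that of PSMD5 was lowest in IGF1, at 8.11, 7.61 and 7.94. PSMB10 was the single subunit higher by more than 0.5 with OSI906, at 0.65 in U87WT and 0.15 in U87Mut, against 3.65% of all detected genes.

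The median over the 40 subunits for this difference was -0.07 in U87WT and -0.02 in U87Mut, and no subunit of U87Mut passed 0.5, the nearest being PSME2 at -0.46, against 2.07% of all detected genes above 0.5 and 0.967% below -0.5. Both sets of differences use the IGF1 array, so a value that is high on that array alone appears in both with opposite signs. In the comparison that leaves that array out, IGF1 with OSI906 against FBS-free medium, no subunit of either clone passed 0.5, and the medians were 0.01 in U87WT and -0.01 in U87Mut. The dimmer probe of PSMD2 did pass it there, with 0.63 in U87WT and 0.56 in U87Mut. In that comparison 2.38% and 2.22% of all detected genes were above and below this size in U87WT, and 0.675% and 0.755% in U87Mut. The IGF1 array also held 27 spots with a local Cy5 background over 1000, where the other arrays had 0, and none of its subunit spots were marked. The part of this array in the differences was not tested.

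**Figure D5:**
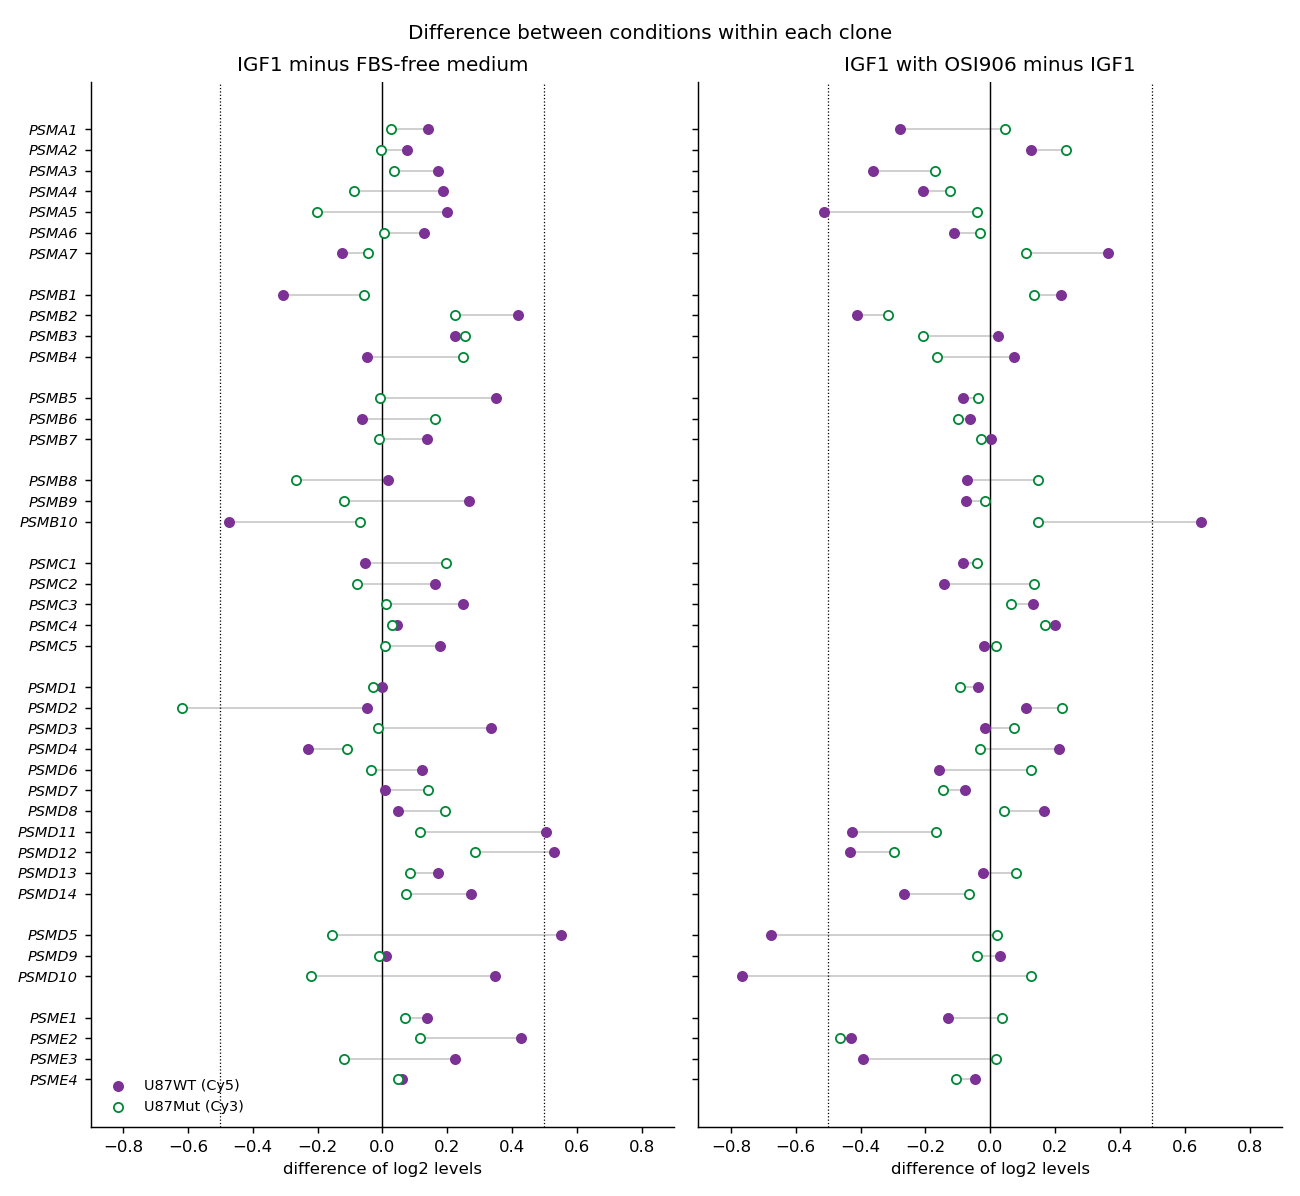
Difference in log2 level between conditions within U87WT (filled) and U87Mut (open) for the 40 detected subunits, with 1 array per condition and dotted lines at a size of 0.5. Left, IGF1 minus FBS-free medium, where 31 filled points lie above 0. Right, IGF1 with OSI906 minus IGF1, where PSMD10, PSMD5 and PSMA5 lie farthest to the left in U87WT.

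A FOXO core, GTAAACA, the element bound by factors that insulin-type signaling keeps out of the nucleus, is shown for the subunits that hold it. On either strand it was in 2 of the 37 promoters (5.41%), against 4.19% of all genes, so it was about as frequent as elsewhere. The windows are PSMD5 at chr9:120843113-120843172 and PSMB2 at chr1:35641681-35641740, both on the minus strand and written along the gene.
PSMD5: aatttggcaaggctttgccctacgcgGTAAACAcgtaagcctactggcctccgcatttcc
PSMB2: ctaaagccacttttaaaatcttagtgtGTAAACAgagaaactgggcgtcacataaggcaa

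As given above, the 2 probes of PSMD5 differed in direction after IGF1 in both clones and those of PSMB2 in U87Mut.

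Genes that work with the proteasome but carry other symbols were taken from lists of assembly chaperones, cap subunits, associated enzymes, shuttle factors, transcription factors, ubiquitin genes and antigen processing. A probe was matched for 39 of these 40 genes, all but BAG6, and 36 were detected. TAPBP and UBE3C had no value on the IGF1 array because their spots were marked, and NFE2L2 was not well above background. In limma, 7 were lower in U87WT and 2 were higher, against 11.2% and 11.5% of all detected genes. The median of their mean ratios was -0.01, where that of the subunits was -0.22. The lower genes were the core assembly chaperones PSMG3 and PSMG4, the ubiquitin receptor ADRM1, the deubiquitinase USP14, the shuttle factors UBQLN1 and UBQLN4, and NLRC5, a regulator of MHC class I genes.

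ADRM1, which is the Rpn13 subunit of the cap under another symbol, had ratios of -0.44, -0.26 and -0.44 (limma adjusted p = 0.0189), so a 19S subunit outside the PSM symbols lay on the same side. SEM1, the smallest cap subunit, had 0.31, -0.16 and 0.05. Among the higher genes was VCP, the ATPase that pulls ubiquitin-tagged proteins out of complexes, with 0.53, 0.48 and 0.44 (limma adjusted p = 0.00584). UBB and RPS27A, which encode ubiquitin, had ratios between -0.14 and 0.32 and did not pass.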

How the data were processed

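RNA of both clones was hybridised to 3 Agilent 2-color arrays on 1 slide. The deposited scanner files, written by Agilent Feature Extraction 12.0.3.1, hold intensity per spot. The authors also deposited log2 ratios, used as an alternative. Their column medians were -0.0066, -0.0074 and -0.003 and their subunit medians -0.24, -0.15 and -0.21, and how they were centered is not given in the sources used here. Background was corrected by normexp with offset 50, fitted without spots marked as not uniform, in limma 3.58.1 (R 4.3.3), followed by loess within and Aquantile between arrays. Control and outlier spots were left out and spots of a probe averaged. RefSeq transcripts named 34892 of 58201 probes, for 25006 genes. An intercept-only limma fit over 3 arrays used Benjamini-Hochberg adjustment over all probes. The code was tested on simulated data. Members and lists were chosen with earlier results of these data known. Values were described for the catalytic subunits, the highest and lowest member of each subcomplex, members past 0.5, the 3 widest ranges and, in other lists, genes past 0.5 on 2 arrays; other genes were named after their values were seen. Some genes of these lists are not reported here by name. The number of arrays limits the precision. With 1 sample per condition, p-values measure the spread between conditions, not between cultures.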

Additional observations from a re-analysis of the deposited data

Results flagged for a closer look

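In 3 subunits the clones differed in opposite directions between IGF1 and FBS-free medium, each by more than the SD of a single clone ratio of 0.151. That SD describes a ratio within an array and was estimated without the IGF1 array. It is therefore not the error of these differences between arrays. PSMA5, an alpha ring subunit, was higher by 0.20 in U87WT and stood at -0.20 in U87Mut. PSMD5, a 19S assembly chaperone, was at 0.55 in U87WT and -0.15 in U87Mut, but its 2nd probe gave the reverse, -0.50 and 0.45. PSMD10, another of these chaperones, was at 0.35 in U87WT and -0.22 in U87Mut, and its 2nd probe gave 0.38 and 0.01. Each value compares 1 array with 1 array, and the difference between the clones was not tested.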

How the results depend on the processing

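With 1 array per condition, replicate error is unknown, and dye and clone cannot be told apart. The clone ratio is paired within each array, and no further replicate block could be fitted with 1 array per condition. Against 14 lower and 0 higher subunits, normexp on all spots gave 6 lower, offset 0, the scanner's processed signals and median centering within arrays gave 0 each, and the deposited ratios gave 3. The share of all detected genes called lower was 2.69% for normexp on all spots, 1.33% for offset 0 and 3.1% in the deposited ratios. It was 0% for the processed signals and median centering, so a count of 0 there does not set the subunits apart. Offset 20 gave 3 higher, no background correction 1 and the mean of all probes 2. Leaving out 1 array gave 0 to 20 lower, against 1.61% to 14.5% of all detected genes, and 0 to 2 higher. The shares of all detected genes called higher in these settings are not given here. All 14 stayed below 0 under each of these processings except median centering (13). For the other pathway genes (7 lower, 2 higher), all-spot normexp gave 2 lower and 0 higher, offset 0, processed signals and median centering 0 and 0, the deposited ratios 1 and 0. Leaving out 1 array gave 0 to 6 lower and 1 to 3 higher. The shares of all detected genes called lower are those given above for each setting. Under median centering the subunits' median ratio was -0.44 in FBS-free medium and 0.44 in IGF1, where all detected genes moved to -0.17 and 0.30 and those at least as bright as the dimmest subunit to -0.27 and 0.49. The subunits' median difference was then 0.53 after IGF1 in U87WT and -0.38 in U87Mut, and with OSI906 -0.26 and 0.16. The cause was not tested.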
